A study of Mus musculus with 4 samples.

Results

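The sodium-calcium exchanger genes are 8 mouse genes of the families Slc8 (Slc8a1, Slc8a2 and Slc8a3) and Slc24 (Slc24a1, Slc24a2, Slc24a3, Slc24a4 and Slc24a5), among 21887 protein-coding genes of the RefSeq table. They were examined in a list of regions where chromatin of the striatum was enriched by immunoprecipitation (IP) of TRα1, the alpha 1 thyroid hormone receptor, carrying a GS tag. The animals carried Gad2Cre, a Cre driver of GABAergic neurons, and the ThraGS allele, per the series title, and the labels state neither age nor sex. The series holds 3 IP fractions, made with IgG-coated magnetic beads, and 1 input of the same tissue, and all share this genotype as far as the labels say. An IP from animals without the tag was not analysed here, so binding of the receptor cannot be told apart from other recovery of chromatin by the beads. The fractions and the input were deposited as 1 list of 7484 peaks, so no value has a spread between fractions. The list holds no expression values, so the tissue was not checked against markers. A peak was given to a gene when its summit, the highest point, lay inside the annotated span of the gene or within 30 kb of it. This rule gave 12 peaks to 5 of the 8 genes. The genes were chosen by family with earlier results of these data known. Their peaks were selected on summit position in the same list that is described here. The values below are therefore a description and no test was made.

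Exchangers of both families move calcium out of the cytosol, using the sodium gradient that the sodium pump keeps up. Slc8 proteins (NCX) trade sodium for calcium, and Slc24 proteins (NCKX) carry potassium along with the calcium. In neurons they help to clear calcium after activity, together with the calcium pumps of the plasma membrane. The thyroid hormone receptor binds DNA mostly as a pair with a retinoid X receptor, at repeats of the half-site AGGTCA, and activates or represses genes depending on the hormone.

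The start regions of 3 members are shown first, outside the plan, which was to read only promoters that a member peak overlaps. Slc24a4 and Slc24a2 have a peak within 1 kb of a start site. Slc24a3 is the only member with a half-site in a promoter. Slc8a2 and Slc8a3 also have peaks, and their start regions are not shown. None of the 12 peaks overlapped any promoter of the RefSeq table (GRCm38.p6), which holds the 250 bases before and 50 bases after each start site. In the whole list 730 peaks, 9.75%, overlapped one, and nothing is read from the 0 of 12. The peak nearest to a member's promoter was that of Slc24a4, which ended 175 bp before the stretch shown. Slc24a2 had a peak on the other side of its start, 791 bp from the stretch shown, and the one Slc24a3 peak was 49787 bp from the stretch shown and 24593 bp from the gene's other promoter. Only bases outside the annotated gene span are printed, 5′ to 3′ on the gene's strand, and capitals mark the half-site AGGTCA. The stretches are chr12:102128477-102128726 on the plus strand for Slc24a4, chr4:87230653-87230790 on the minus strand for Slc24a2, and chr2:145167525-145167774 on the plus strand for Slc24a3.
Slc24a4: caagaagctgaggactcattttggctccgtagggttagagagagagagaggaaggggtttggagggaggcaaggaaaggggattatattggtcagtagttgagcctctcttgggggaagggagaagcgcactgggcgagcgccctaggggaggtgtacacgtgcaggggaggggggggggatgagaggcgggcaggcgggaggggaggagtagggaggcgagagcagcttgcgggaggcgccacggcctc
Slc24a2: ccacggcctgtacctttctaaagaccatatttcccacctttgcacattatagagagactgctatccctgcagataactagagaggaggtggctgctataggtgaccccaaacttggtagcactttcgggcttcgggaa
Slc24a3: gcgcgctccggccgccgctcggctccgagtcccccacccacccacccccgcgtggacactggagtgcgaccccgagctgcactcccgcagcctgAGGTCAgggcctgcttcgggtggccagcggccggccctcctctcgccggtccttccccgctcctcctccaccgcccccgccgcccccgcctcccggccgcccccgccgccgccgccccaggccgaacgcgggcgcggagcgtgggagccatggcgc
Across the 10 promoters of the 8 members, the half-site on either strand was found in 1, the first promoter of Slc24a3, whose half-site begins 156 bases before the start. The table need not hold every start site. For Slc8a2 it holds 1, at 16129826, though the gene span begins upstream of it, at 16127592. Of all 32851 promoters of the table, 16.3% hold it. The direct repeat AGGTCA, 4 bases of any kind, AGGTCA, known as DR4, was also searched on both strands, and it overlaps the half-site by construction. It was in none of the member promoters and in 5 of all promoters. The absence of these letters says nothing about sequences under the peaks themselves, which were not read here.

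Slc24a2 held the strongest and the most peaks. This gene, on chromosome 4 at 86983124 to 87230652 on the minus strand, encodes NCKX2, an exchanger of neurons. Its 5 summits had pileups of 24.4, 15.0, 36.6, 17.8 and 118, in the direction of transcription. The pileup is the height of stacked fragments at the summit after the peak caller's scaling. In the same order the authors' fold enrichment, the pileup over the local background with 1 added to both, was 8.80, 5.40, 13.0, 6.52 and 41.3. Of the 5, 1 was thus far above the others, with a pileup 3.23 times that of the next (95% exact Poisson intervals 98.6 to 141 and 26.0 to 50.1, counting error only).

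The strongest Slc24a2 peak, chr4:86958019-86958559, was 541 bp wide and ranked 11 in the whole list by fold. It lay outside the gene, 24.8 kb beyond its 3′ end. The neighbouring gene Acer2, which encodes a ceramidase, runs toward Slc24a2 from the other side, and its 3′ end was 25.8 kb from the summit. The peak thus stood between the ends of 2 converging genes, nearly as close to one as to the other. A further peak with a fold of 10.7 lay 46.9 kb from Slc24a2 in the same stretch, beyond the 30 kb limit. Its summit, at 86936175, was much nearer to Acer2, which ends at 86932524. With a limit of 5 kb the strongest peak is not counted, and the highest fold of Slc24a2 is then 13.0, below that of Slc8a3 and of Slc8a2.

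The other 4 Slc24a2 peaks were inside the gene. The first, chr4:87229475-87229862, had its summit 874 bp after the first of the 2 start sites in the table, with a fold of 8.80. The peaks with folds of 13.0 and 6.52 stood 6.31 kb apart, at 70.6% and 73.2% of the way along the gene. The weakest, with a fold of 5.40, lay at 44.7% of the gene. At least 5 summits in such a window were found for 179 protein-coding genes, 0.818% of all, and for 3.55% of those with a window of 200 to 500 kb, the class of Slc24a2.

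Slc8a3 held 1 peak, nearly as strong as that of Slc24a2. The gene encodes NCX3, an exchanger of brain and skeletal muscle, on chromosome 12 at 81197915 to 81333732, minus strand. Its peak, chr12:81300407-81300850, had a pileup of 104 (exact Poisson interval 85.7 to 126), a fold of 36.4 and a width of 444 bp. It ranked 21 in the list. The intervals of the Slc8a3 and Slc24a2 summits overlap, so their heights were not told apart at this depth. The Slc8a3 summit was inside the gene, 24.4% of the way along it and 32.6 kb after the start site. No other annotated gene held it, and the next protein-coding gene was 58.3 kb away. A window of 30 kb around the gene ends alone does not reach this summit.

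Slc8a2 held 3 peaks of middle height. It encodes NCX2, the exchanger best known from brain, on chromosome 7 at 16127592 to 16161063, plus strand. The pileups were 35.7, 29.1 and 45.1 in the direction of transcription, with folds of 9.17, 10.4 and 15.9, and all 3 counting intervals overlap. The strongest, chr7:16160207-16160536, lay inside the gene 702 bp before its 3′ end, and the second, chr7:16156159-16156384, lay 4800 bp before that end. Neither was near the only start site in the promoter table, 30.5 and 26.4 kb away. The third, chr7:16103860-16104132, lay 23.6 kb before the gene and inside Napa, which encodes a vesicle fusion factor, so Slc8a2 is not its nearest gene. The local background there, recovered as (pileup + 1) / fold − 1, was 3.00, against 1.89 at the other 2, so that its fold is lower than at the same pileup over 1.89. The value 1.89 is the lowest background in the list. Within 0.05 of it were 2994 of the 7484 peaks and 9 of the 12 member peaks. At least 3 summits were found for 4.15% of protein-coding genes.

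**Figure D1:**
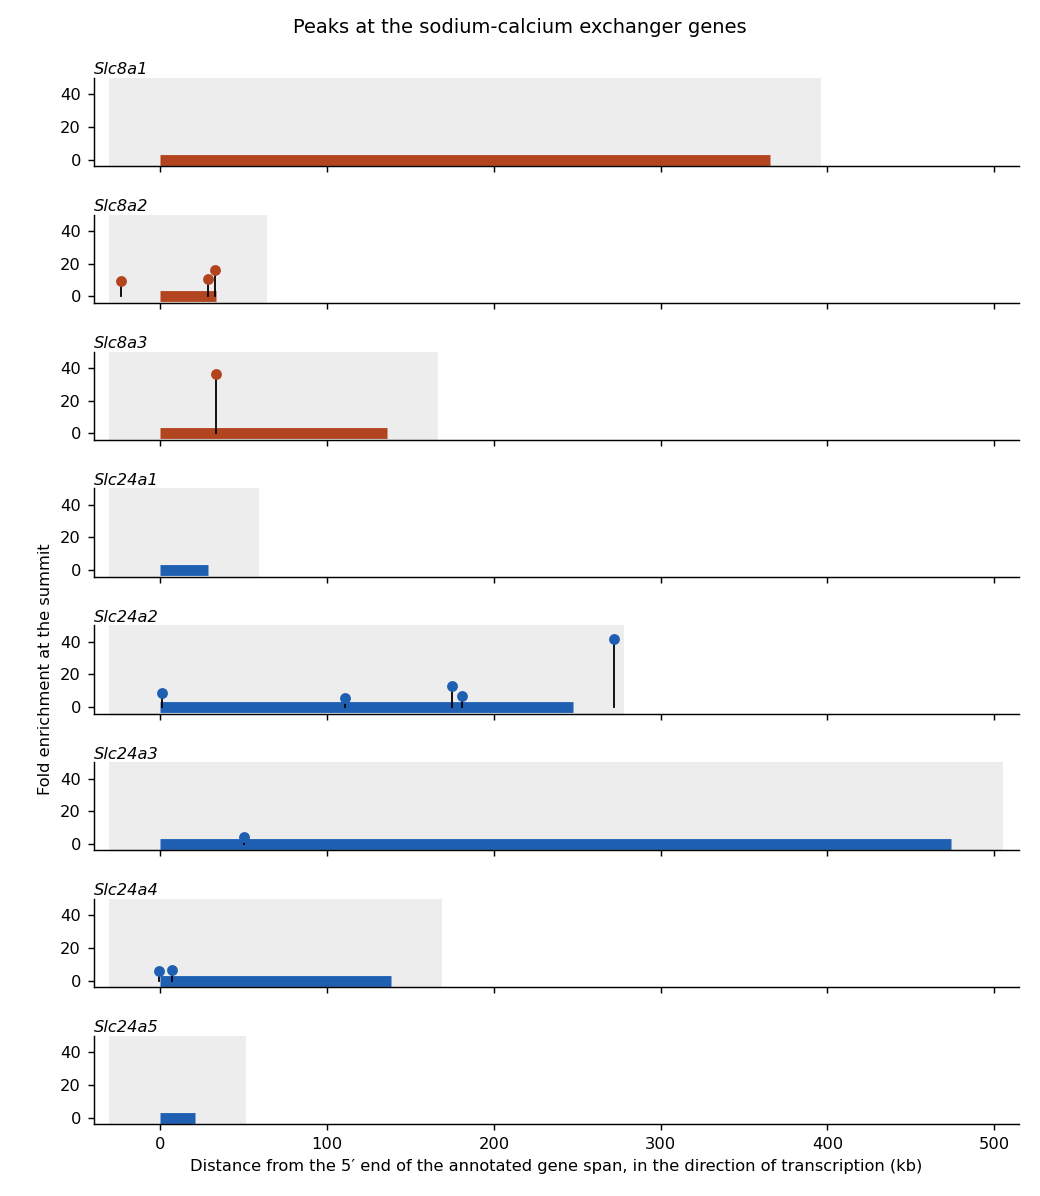
Peaks at the 8 exchanger genes. The x axis is the distance in kb from the 5′ end of the gene span in the direction of transcription, the y axis is the fold enrichment, bars on the zero line are genes, grey areas are the windows of 30 kb, and stems are peaks (red Slc8, blue Slc24). The highest stems are beyond the 3′ end of Slc24a2 (41.3) and inside Slc8a3 (36.4), and Slc8a1, Slc24a1 and Slc24a5 have none.

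Slc24a4 and Slc24a3 held weak peaks. Slc24a4 encodes NCKX4, known from brain, olfactory neurons and enamel, on chromosome 12 at 102128727 to 102267133, plus strand. Its 2 pileups were 16.0 and 17.8 and its folds 5.87 and 6.52, both under the list median of 6.91. The first, chr12:102128103-102128302, had its summit 543 bp before the start site, and the second, chr12:102135875-102136133, lay 7258 bp after it. These were the member peaks closest to a start site on either side of it, apart from the one of Slc24a2 at 874 bp.

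Slc24a3, which encodes NCKX3, an exchanger of brain and smooth muscle, is the longest member, at 474 kb on chromosome 2, 145167775 to 145642166, plus strand. Its single peak, chr2:145217561-145217768, was the weakest of the 12, with a pileup of 15.0 and a fold of 4.01. The summit was 49882 bp after the first start site and 24954 bp before the second. The local background of 3.00 was again above 1.89, and a summit of equal pileup in Slc24a2, with a background of 1.97, had a fold of 5.40. Just beyond the limit, 33.6 kb past the gene's 3′ end, stood a stronger peak with a pileup of 38.5 and a fold of 9.87. The authors' −log10 q was 3.69 at the Slc24a3 summit and 6.22 and 8.06 at those of Slc24a4, so neither gene held a peak when at least 10 was asked, while the strongest summits of Slc8a3 and Slc24a2 had 134 and 158.

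**Figure D2:**
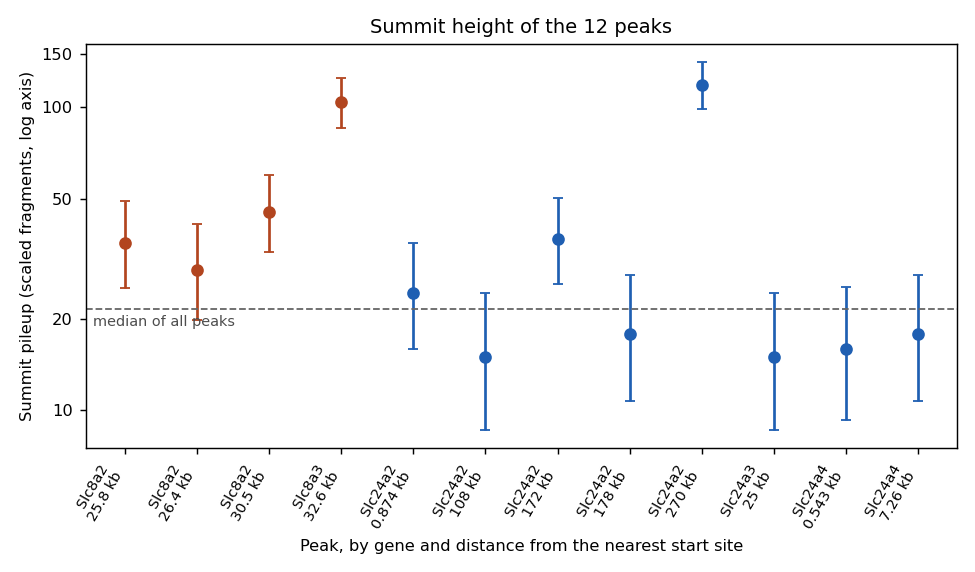
Summit pileup of each of the 12 peaks in scaled fragments on a log axis, in the order of transcription within each gene (red Slc8, blue Slc24). Bars are 95% exact Poisson intervals for counting error, and the dashed line is the median of all peaks, 21.6. The tallest summits, of Slc8a3 (104) and Slc24a2 (118), have intervals that overlap each other and none of the other 10.

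Slc8a1, Slc24a1 and Slc24a5 had no peak. Slc24a5 encodes NCKX5, an exchanger of pigment granules, and Slc24a1 encodes NCKX1, the exchanger of retinal rods. The nearest summit to Slc24a5 (chromosome 2, 125068127 to 125088677) was only just outside the limit, at 31.3 kb, inside Myef2, with a fold of 4.34. The nearest to Slc24a1 (chromosome 9, 64922861 to 64951620) was at 59.2 kb, inside Hacd3, with a fold of 19.2. Both windows were under 100 kb, a class in which 27.8% of protein-coding genes held a summit.

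Slc8a1 stood much farther from any peak. It encodes NCX1, the exchanger of heart muscle that is also made in brain, and has the second longest span of the members, 365 kb on chromosome 17 at 81373105 to 81738387, minus strand. The nearest summit was 1198 kb below the gene, with a fold of 7.11, and the next one above was 2216 kb away, with a fold of 5.97. The interval between these summits was 3.78 Mb, where the median interval between neighbouring summits was 126 kb. Of 7393 such intervals on the autosomes, 36 were as long or longer. This interval was reached through a gene inside it, which favours long intervals, so the share per gene given below is the closer comparison. The interval holds 18 whole protein-coding genes, Slc8a1 included, among them Sos1, Map4k3, Eml4 and Mta3. Genes that lie between neighbouring summits have no summit inside by construction. Peaks are numbered along each chromosome, and the numbers 3322 and 3323 of the flanking peaks follow each other directly. A nearest summit as far away or farther was found for 1181 protein-coding genes, 5.40%, of which 585 were on X or Y. The window of Slc8a1 by itself does not show a low density, since 0 peaks in 425 kb allow up to 8.67 per Mb (exact Poisson bound) and genes of its class had 3.80 per Mb.

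**Figure D3:**
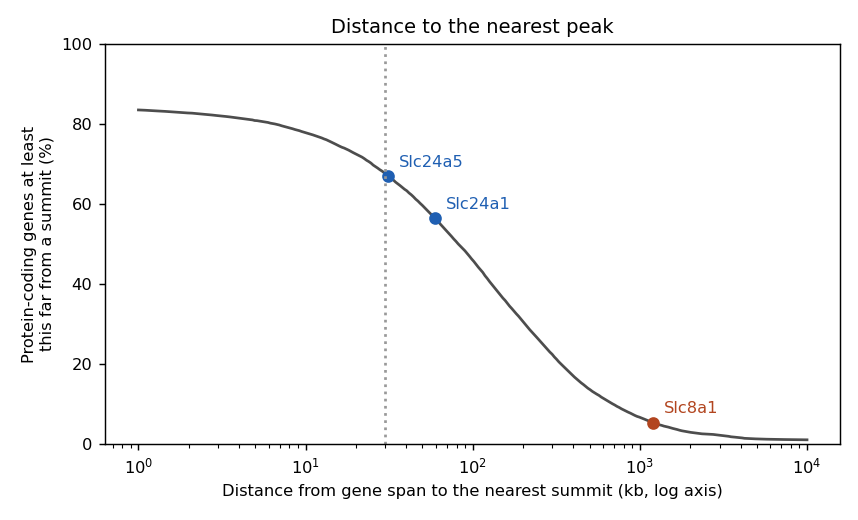
Share of protein-coding genes (y axis, %) whose span lies at least a given distance (x axis, kb, log scale) from the nearest summit, with the 3 members without a peak marked and the 30 kb limit dotted. Slc24a5 (31.3 kb) and Slc24a1 (59.2 kb) lie on the steep middle part of the curve, and Slc8a1 (1198 kb) lies where 5.40% of genes are left.

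Counts and heights of the families are set side by side without a test. Of the 3 Slc8 genes 2 had a peak, and of the 5 Slc24 genes 3 had one, where 32.4% of all protein-coding genes did. The members' count rests on the same peaks as the rule, so nothing is read from it. Per Mb of window there were 5.60 peaks for Slc8 (exact Poisson interval 1.53 to 14.3) and 6.61 for Slc24 (2.86 to 13.0), against 4.72 over all protein-coding genes. These intervals overlap almost wholly.

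All 4 Slc8 summits had pileups of 29.1 or more, and 6 of the 8 Slc24 summits had less. The median pileup was 40.4 for Slc8 and 17.8 for Slc24, beside 21.6 over the list, while the highest value of either family was in Slc24. Folds ran from 9.17 to 36.4 in Slc8, all above the list median of 6.91, and from 4.01 to 41.3 in Slc24, of which 3 of 8 were above it. The median width was 302 bp for Slc8 and 252 bp for Slc24, beside 260 bp over the list. With 3 and 5 genes, with 3 of the 4 Slc8 peaks from Slc8a2, 1 of them inside Napa, and with 5 of the 8 Slc24 peaks from Slc24a2, these are values of single loci, and a difference between the families was not tested.

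**Figure D4:**
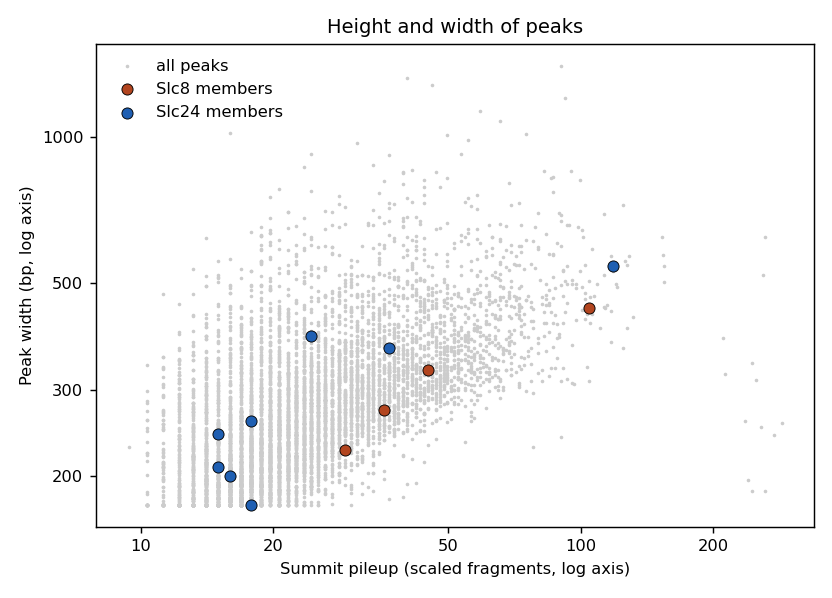
Width (y axis, bp) against summit pileup (x axis, scaled fragments), both on log axes, for all 7484 peaks (grey) and for the members (red Slc8, blue Slc24). The tallest member peaks are also the widest, at 444 and 541 bp, and the first peak of Slc24a2 is wide for its height, at 388 bp and 24.4.

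By position, 9 of the 12 summits were inside a member gene, 2 before the start and 1 beyond the 3′ end. With the Slc8a2 summit inside Napa, 10 of the 12 were inside some protein-coding gene. Among the 6100 summits of the list within 30 kb of a protein-coding gene, the limit that also chose the 12, 73.0% were inside one. At Slc24a2 and Slc24a4, 2 of the 12 were within 1 kb of a start site of their own gene, with folds of 8.80 and 5.87. Of all summits in the list, 16.4% were that close to a start site of any gene. That share has no 30 kb limit, so the 2 values are not like for like. The 4 Slc8 summits all stood 25.8 to 32.6 kb from the start site of their gene, 1 before it and 3 after it. Folds were 10 or more at 5 of the 12 summits and at 23.9% of the list, and 20 or more at 2 of the 12 and at 3.55% of the list. Ranked by their strongest summit among the 7097 protein-coding genes with one, Slc24a2 was at 19, Slc8a3 at 39, Slc8a2 at 819, Slc24a4 at 4647 and Slc24a3 at 6901. The members thus covered nearly the whole range of the list. The summit that gives Slc24a2 its rank is also within 30 kb of Acer2, so the same rule gives it to both genes.

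Larger genes held a peak more often by this rule, since their windows are wider. The share of protein-coding genes with a summit was 39.4% for windows of 100 to 200 kb, 55.8% for 200 to 500 kb and 73.7% above 500 kb. Slc24a3, with the widest window of 534 kb, had 1.87 peaks per Mb (exact Poisson interval 0.0474 to 10.4), beside 2.93 in its class. Slc8a3 had 5.11 (0.129 to 28.5) and Slc24a4 10.1 (1.22 to 36.4), beside 4.66 in their class. The intervals of these 3 genes cover the class value. Slc8a2, with 93.5 kb, had 32.1 per Mb (exact Poisson interval 6.62 to 93.8), beside 5.43 in its class. Slc24a2 had 16.3 per Mb (5.28 to 37.9), beside 3.80 in its class. The intervals of Slc8a2 and Slc24a2 lie above the class value, but the genes were chosen with their peaks known, so nothing is read from this. The Slc8a2 count includes the summit inside Napa, and the Slc24a2 count includes the summit 24.8 kb beyond its 3′ end. With a limit of 5 kb these genes had 2 and 4 peaks, and intervals for those counts were not computed.

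**Figure D5:**
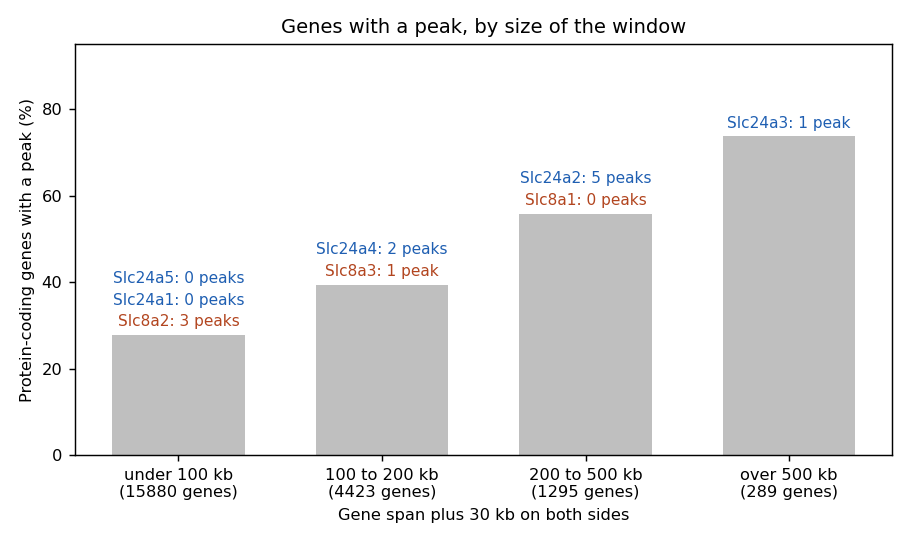
Share of protein-coding genes with a peak (bars, %) by the size of the gene span plus 30 kb on both sides, with each member named above the bar of its class (red Slc8, blue Slc24). The share rises from 27.8% to 73.7%, and Slc8a1, with 0 peaks, is in a class where 55.8% had one.

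Of 27 other genes of calcium and sodium transport, 16 had a peak in the same kind of window, 59.3%, beside 32.4% of all protein-coding genes. This list, like the members, was drawn up with earlier results of these data known, and nothing particular to it is claimed. The median of the strongest fold was 7.42 over these 16 genes, beside 7.82 over all genes with a peak and 15.9 over the 5 members. Slc8b1, the related exchanger of mitochondria, had 1 weak peak inside the gene with a fold of 5.87.

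Calcium pumps of the plasma membrane, which export calcium beside the exchangers, had peaks at 2 of 4 genes. Atp2b1 had 6 with a highest fold of 22.8, and Atp2b2 had 8 with a highest fold of 20.1, both inside the gene. Pumps of the endoplasmic reticulum and Golgi had peaks at 3 of 5 genes, with a fold of 12.4 at 27340 bp from Atp2c1.

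The sodium pump, which builds the gradient that exchangers spend, had peaks at 3 of 8 genes. The beta subunit gene Atp1b1 had 4 with a highest fold of 9.45. Genes of mitochondrial calcium uptake had peaks at 4 of 6 genes, with a fold of 8.15 at Letm1. All 3 calmodulin genes, which encode the same calcium sensor, had a peak, with a highest fold of 15.0 at 26735 bp from Calm3 and inside Pnmal1.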

How the data were processed

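Chromatin of mouse striatum was sequenced in 3 IP fractions and 1 input, grouped by the labels. The submitters' processing notes name the builds GRCm38 and mm10 and the tools MACS2 2.1.1.20160309.0 and Bowtie2 2.3.4.2, and do not say whether IP fractions were pooled for peak calling. The authors deposited 1 peak list with the pileup signal at each summit, the fold enrichment (a linear ratio) and the −log10 q-value, and the widths and summit positions in bp, per the file headers. Pileups lay on a grid with a step of 0.939, largest residual 0.00574, and 95% exact Poisson intervals were computed on these steps. They cover counting error only, and PCR copies are not independent molecules. Library totals were not used. Names are numbered to 7653, and 169 numbers are not in the list used here, none of them in a member window.

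Gene spans came from RefSeq GRCm38.p6 and start sites and strands from its promoter table. Exons and introns were not used here. The counting was tested on simulated data (Python 3.11.15, pandas 2.3.3, scipy 1.17.1). The members and lists were chosen with earlier results of these data known. All members and their peaks are named, with the genes that hold or neighbour a summit, and up to 8 partner genes by fold, some of which are not reported here. The related exchanger gene Slc8b1 and the 4 genes named in the peak-free interval at Slc8a1 were added after their values were seen. Alternatives were stricter peaks, other windows and the nearest gene only.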

Additional observations from a re-analysis of the deposited data

How the results depend on the processing

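The 7 alternatives were set against each of 9 values, and 40 of 63 values stayed within 1.5 times (the median fold, 8.98, within 1 SD of the member folds, 12.3). With −log10 q of at least 10, 3 members kept 7 peaks, Slc24 had 1 gene with 3 peaks, 10 partner genes had a peak and 20.4% of protein-coding genes did. Above the median fold these values were 3, 7, 1, 3, 9 and 19.5%. Without the 1% highest and widest peaks, Slc8a3 dropped out, 1 Slc8 gene was left, and the highest fold of Slc24a2 fell from 41.3 to 13.0. Within 30 kb of either gene end, 3 members had 7 peaks, 1 Slc8 gene was left and Slc24 had 4 peaks. With 100 kb on both sides, all 5 Slc24 genes had a peak, 14 in all, beside 54.0% of protein-coding genes, and Slc8a1 still had 0. With 5 kb the highest fold of Slc24a2 was also 13.0, and 9 partner genes and 19.1% of protein-coding genes had a peak. When only the nearest gene counted, 18.7% of protein-coding genes did and the Napa peak was lost to Slc8a2. The moved counts follow from fewer peaks or other windows by construction. No paired analysis was possible because the list has no value per sample, and for the same reason no fraction could be left out. Depth limits how finely heights can be compared, as the intervals of the summits show.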
